A study of Mus musculus with 31 samples.

Results

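The astrocyte genes examined here are 10 genes (Gfap, S100b, Aldh1l1, Slc1a2, Slc1a3, Glul, Aqp4, Gja1, Agt and Htra1) chosen by name as genes that mark or serve astrocytes. Each was found by its Ensembl gene ID, so 10 of the 54532 genes in the count table are described, and all 10 passed the filter on low counts that left 18743 genes to test. RNA of the hypothalamus was sequenced in 31 libraries from 4-month-old C57BL/6J mice. The 4 groups were 7 libraries from female and 8 from male offspring of dams fed an obesogenic diet, high in fat and sugar, through pregnancy and lactation, and 8 from female and 8 from male offspring of dams fed a control diet. All offspring were weaned at postnatal day 21 to standard chow, and all were switched at 3 months to the obesogenic diet for 4 weeks, so the control groups also ate it as adults. The series asks whether the diet of the dam alters the hypothalamus of adult offspring, here for the genes of one glial cell type. The labels give neither animals nor litters, so p-values measure the spread between these libraries, part of which may be technical.

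Astrocytes are the glia that wrap synapses and blood vessels. They take up glutamate released by neurons and return it as glutamine, pass ions and metabolites between cells through gap junctions, and carry water channels on the endfeet that face vessels. In the hypothalamus, a brain region that regulates feeding and energy balance, astrocytes also respond to dietary fat, and a rise of the filament protein GFAP is the usual sign of their reactive state. By function the 10 genes fall into cell identity and structure (Gfap, the astrocyte intermediate filament; S100b, a calcium-binding protein; Aldh1l1, an enzyme of folate metabolism), glutamate handling (Slc1a2 and Slc1a3, the glutamate transporters GLT-1 and GLAST; Glul, glutamine synthetase), membrane exchange (Aqp4, the endfoot water channel; Gja1, the gap junction protein connexin 43) and secreted proteins (Agt, the precursor of angiotensin peptides; Htra1, a secreted serine protease).

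RefSeq (GRCm38.p6) gave promoter windows, from 250 bases before to 50 bases after the annotated start, for 9 of the 10 genes. Aldh1l1 and S100b are shown because their RNA levels followed each other most closely of the 45 pairs over all 31 libraries, and Gfap and Agt because their levels are followed in several comparisons below. Capitals mark matches, on either strand, to the letters searched for a STAT site, the left part of an NFI site, a TATA box and a GC box, which are spelled out after the sequences.
Aldh1l1 promoter, chr6:90550543-90550842 (plus strand): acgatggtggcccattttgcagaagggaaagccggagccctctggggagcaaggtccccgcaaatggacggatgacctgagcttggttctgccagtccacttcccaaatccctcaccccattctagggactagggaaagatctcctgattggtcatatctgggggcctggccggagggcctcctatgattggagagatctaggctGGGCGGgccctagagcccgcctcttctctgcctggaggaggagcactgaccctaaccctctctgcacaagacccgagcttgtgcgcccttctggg
S100b promoter, chr10:76253586-76253885 (plus strand): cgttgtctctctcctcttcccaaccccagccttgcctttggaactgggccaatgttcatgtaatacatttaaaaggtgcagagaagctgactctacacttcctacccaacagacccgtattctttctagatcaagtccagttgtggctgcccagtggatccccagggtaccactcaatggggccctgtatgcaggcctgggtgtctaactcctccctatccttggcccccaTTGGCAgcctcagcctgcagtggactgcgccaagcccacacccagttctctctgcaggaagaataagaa
Gfap promoter, chr11:102897151-102897450 (minus strand): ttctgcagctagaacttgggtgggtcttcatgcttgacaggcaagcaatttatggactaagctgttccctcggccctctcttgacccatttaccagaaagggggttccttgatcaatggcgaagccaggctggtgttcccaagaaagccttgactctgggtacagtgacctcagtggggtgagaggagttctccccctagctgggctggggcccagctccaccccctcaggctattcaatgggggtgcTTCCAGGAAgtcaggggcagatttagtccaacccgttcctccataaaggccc
Agt promoter, chr8:124569657-124569956 (minus strand): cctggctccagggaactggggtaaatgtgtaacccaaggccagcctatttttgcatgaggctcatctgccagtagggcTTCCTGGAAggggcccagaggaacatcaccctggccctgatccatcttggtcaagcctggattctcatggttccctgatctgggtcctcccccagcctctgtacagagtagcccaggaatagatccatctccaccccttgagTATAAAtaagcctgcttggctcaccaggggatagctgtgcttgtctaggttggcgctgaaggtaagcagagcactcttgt
The STAT letters TTCNNNGAA were found in the Gfap, Slc1a3 and Agt windows, against 8.3% of the 32851 RefSeq promoters of the same length. The TATA box letters TATAAA were in the Slc1a3 and Agt windows (13.6% of all promoters), and in Agt they began 30 bases before the start (position -30). The GC box letters GGGCGG were in 4 of the 9 windows (Slc1a3, Aldh1l1, Glul and Htra1; 35.7% of all promoters), and the left NFI letters TTGGCA were in that of S100b (14.1%). The complete palindromic NFI site (in 0.0365% of promoters) and the SOX letters AACAAT (10.7%) were in none of the 9. Aldh1l1 and S100b shared none of these letter patterns in these windows.

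The libraries held 23118626 to 38547288 counted read pairs each. Before any comparison, 5 libraries needed separate treatment. The number of a library only names it within its group. Control female 7 and control male 7 went against their sex label on sex-linked genes. Control female 5, control male 6 and obesogenic female 3 stood apart, with median correlations to the other libraries of 0.910 to 0.936, against 0.967 to 0.979 for the other 28. Control female 5 also went against its tissue label. Its 12 hypothalamic neuron markers summed to 156.8 CPM (counts scaled to one common library size), against 1199 to 4043 in the other 30 libraries, while 9 measured markers of olfactory bulb and telencephalon summed to 1977 CPM, against 82.1 to 137.5. Results are given with all 31 libraries, and the diet results of the members also with the 26 that are not in doubt (6 obesogenic females, 8 obesogenic males, 6 control females and 6 control males).

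All 10 genes were strongly expressed. Their mean levels lay at or above those of 87.9% (Aldh1l1) to 99.9% (Glul) of the genes tested. Divided by exonic length, mean levels over the 31 libraries ran in the order Glul at 570.3 CPM per kb, Agt at 218, S100b at 175, Slc1a2 at 126, Slc1a3 at 118, Gfap at 95.6, Htra1 at 43.2, Aqp4 at 39.5, Gja1 at 33.5 and Aldh1l1 at 22.2 CPM per kb. The order depends on the exonic length used: in CPM, the mean of Gja1 (343.5) lay above those of Aqp4 (200.8) and Htra1 (124.5). Most neighbours in the order per kb kept their places in nearly every library. Slc1a2 and Slc1a3 did not separate, with Slc1a2 the higher in 20 of 31 libraries, nor did Htra1 and Aqp4, with Htra1 the higher in 18 of 31. On the log2 CPM scale, the standard deviation around the group means, over the 31 libraries, was 0.24 for Gja1 to 0.41 for Aqp4 in 9 of the genes, beside a median of 0.33 over all genes tested. Agt had a standard deviation of 0.73, and of 0.22 in the 26 libraries, beside a median of 0.24. In the 26 the other 9 ran from 0.24 (Slc1a3) to 0.35 (Slc1a2). Both medians are over genes of all levels, most of them expressed less than these 10.

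**Figure D1:**
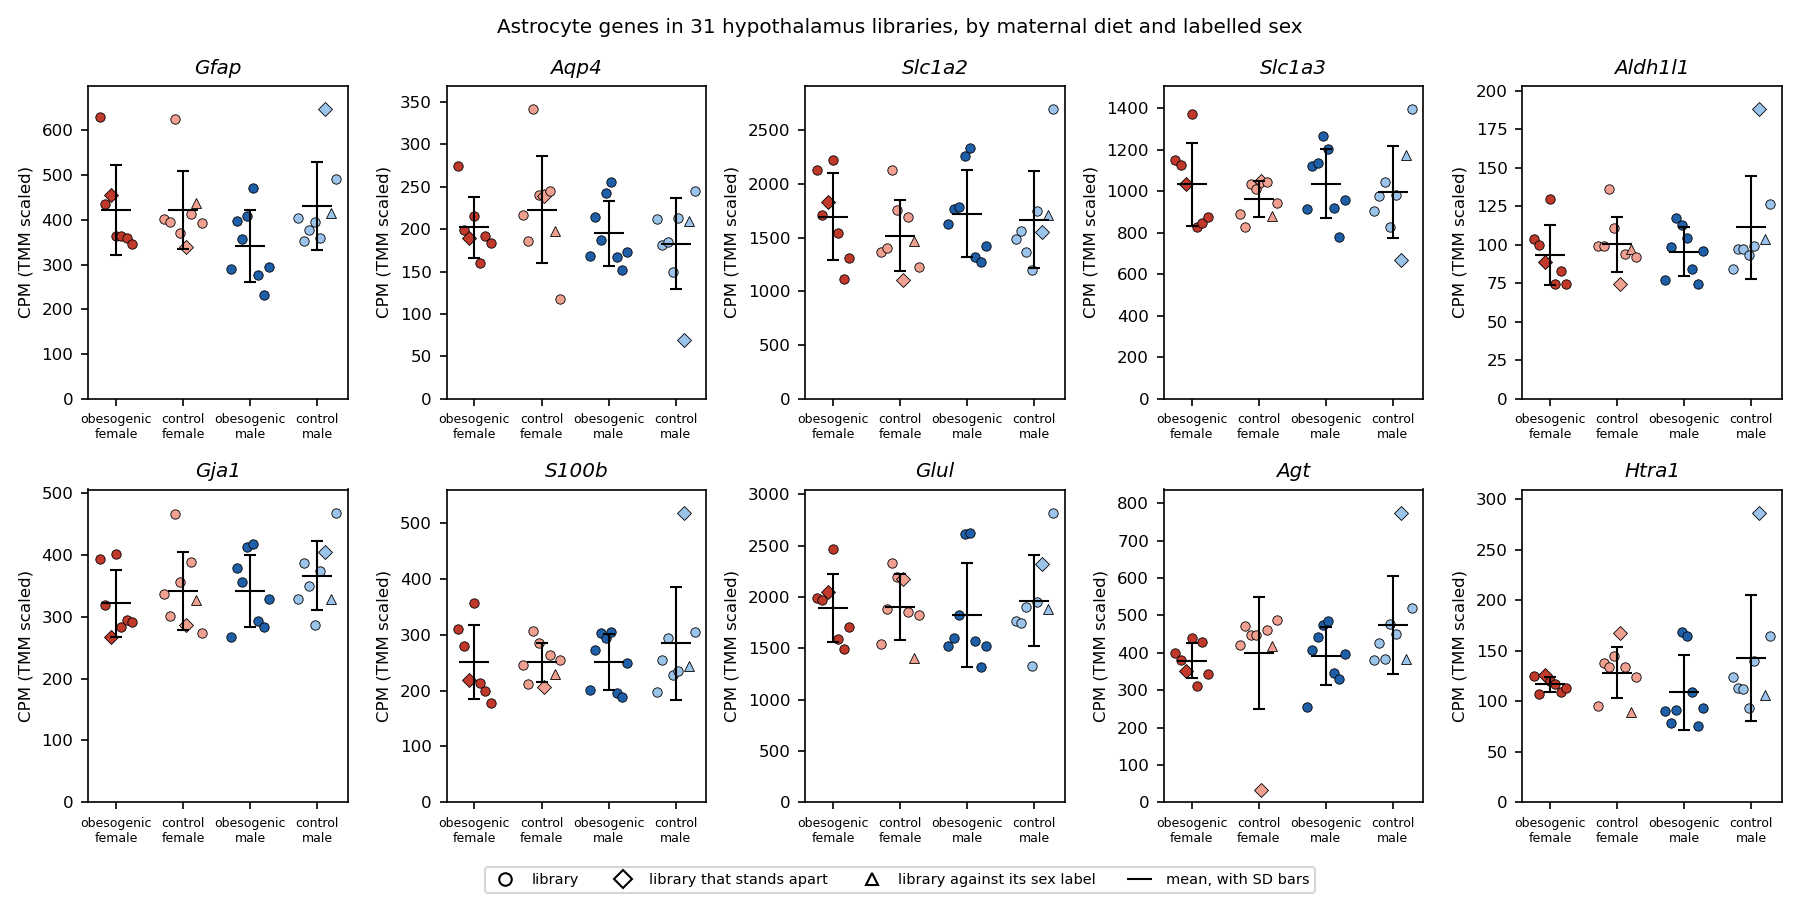
Level of each astrocyte gene in CPM, with TMM scaling, in each of the 31 libraries, by maternal diet and labelled sex. Points are libraries (diamonds stand apart, triangles go against their sex label), and bars are the mean and SD of a group. Groups overlap in every panel, and control male 6 is the highest of 31 in Gfap, Aldh1l1, S100b, Agt and Htra1 and the lowest in Aqp4 and Slc1a3.

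No astrocyte gene passed the test for maternal diet in either sex. By edgeR's quasi-likelihood test with Benjamini-Hochberg adjustment over 18743 genes, 0 of the 10 passed an adjusted p of 0.05 in females and 0 of 10 in males, where 0% and 0% of all genes passed. At an unadjusted p under 0.05, 0 of the 10 and 1522 of all genes stood out in females, and 2 of the 10 (Gfap and Htra1) and 647 of all genes in males. DESeq2 called 6 genes in females and 1 in males, and limma voom 0 and 0, with no astrocyte gene among them. In whole tissue, fewer astrocytes and less RNA per astrocyte cannot be told apart.

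Gfap, the filament gene, reached 347 CPM at the lowest, 364 at the median and 629 at the highest in obesogenic females, against 339, 398 and 626 CPM in control females. Obesogenic males had 233, 326 and 471 CPM, against 354, 400.1 and 647 CPM in control males. The female groups covered the same range, and the 4 lowest of all 31 libraries were obesogenic males, although male ranges also overlapped. The log2 fold change of obesogenic over control was 0.00 ± 0.15 (SE) in females. In males it was -0.33 ± 0.15, with 7 of 8 obesogenic males below the mean of control males (edgeR adjusted p = 0.94). Without control male 6, whose 647 CPM was the highest of 31, the male value was -0.23 ± 0.14, and in the 26 libraries it was -0.22 ± 0.15 (adjusted p = 1). The difference between the sexes in the diet effect was 0.34 ± 0.21 and did not pass (edgeR adjusted p = 1).

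S100b averaged 250.7 ± 66.0 CPM (SD, n = 7) in obesogenic females and 250.7 ± 35.1 CPM (n = 8) in control females. Obesogenic males averaged 251.1 ± 49.8 CPM (n = 8) and control males 284 ± 101 CPM (n = 8). The male control mean was raised by control male 6, at 518 CPM, since the other 7 control males reached 304.7 CPM at most. The log2 fold change in males was -0.18 ± 0.16 with all libraries and -0.01 ± 0.15 in the 26, and in females 0.00 ± 0.17 and -0.03 ± 0.16.

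Aldh1l1 averaged 93.4 ± 19.6 CPM in obesogenic females and 100.3 ± 17.7 CPM in control females. Obesogenic males averaged 95.6 ± 15.7 CPM and control males 111 ± 33.3 CPM, again with control male 6 the highest of 31 at 188 CPM. The fold change of Aldh1l1 in males was -0.22 ± 0.14 with all libraries and -0.06 ± 0.12 in the 26, while in females it was -0.10 ± 0.15 and -0.16 ± 0.13 (log2).

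Differences in the glutamate handling genes were smaller than the spread between libraries. The transporter gene Slc1a2 averaged 1696 ± 408 CPM in obesogenic females, against 1520 ± 329.6 CPM in control females (log2 fold change 0.16 ± 0.16). Its male averages were 1725 ± 402 CPM in offspring of obesogenic dams and 1667 ± 452 CPM in those of control dams (0.05 ± 0.16). Slc1a3, the other transporter gene, averaged 1033 ± 199 CPM in obesogenic females and 961 ± 86.8 CPM in control females (log2 fold change 0.10 ± 0.12). In males it averaged 1037 ± 168 CPM with an obesogenic dam and 997 ± 220.5 CPM with a control dam (0.06 ± 0.12). Slc1a2 and Slc1a3 had fitted values above 0 in both sexes, with all 31 libraries and with the 26, and no other of the 10 genes did. The male value of Slc1a3 was -0.01 without control male 6 alone. Glul, which turns the glutamate taken up into glutamine, averaged 1892 ± 329 CPM in obesogenic females and 1901 ± 324 CPM in control females (log2 fold change -0.01 ± 0.15). Male averages of Glul were 1823 ± 508 CPM in offspring of obesogenic dams and 1964 ± 441 CPM in those of control dams (-0.11 ± 0.14). The female and male values in the 26 libraries were 0.07 ± 0.20 and 0.04 ± 0.18 for Slc1a2, 0.11 ± 0.13 and 0.02 ± 0.12 for Slc1a3, and -0.05 ± 0.17 and -0.07 ± 0.16 for Glul. With all 31 libraries the 95% intervals of these 6 fold changes lay within -0.40 (Glul in males) and 0.49 (Slc1a2 in females).

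Aqp4, the water channel gene, had 161 CPM at the lowest, 192 at the median and 274.1 at the highest in obesogenic females, against 118, 228 and 342 CPM in control females. Obesogenic males had 152, 179.9 and 255.2 CPM, against 69.9, 198 and 244.5 CPM in control males. Both extremes of the 31 libraries were controls, control female 3 at the top and control male 6 at the bottom. The log2 fold change was -0.14 ± 0.19 in females, with 6 of 7 obesogenic females below the control mean, and 0.09 ± 0.18 in males, where it turned to -0.02 ± 0.17 in the 26 libraries. The female value in the 26 was -0.14 ± 0.18. Gja1, the connexin 43 gene, averaged 321 ± 54.2 CPM in obesogenic females and 342 ± 62.9 CPM in control females (log2 fold change -0.09 ± 0.12). In males Gja1 averaged 342 ± 58.3 CPM with an obesogenic dam and 366 ± 55.7 CPM with a control dam (-0.10 ± 0.12). Its fold changes in the 26 libraries were close to these, at -0.10 ± 0.13 in females and -0.10 ± 0.12 in males.

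Agt, the angiotensin precursor gene, had 310 CPM at the lowest, 379.9 at the median and 439.5 at the highest in obesogenic females, against 31.9, 448 and 488 CPM in control females. Obesogenic males had 254.9, 403 and 484 CPM, against 381, 438 and 775 CPM in control males. The lowest library, control female 5, is the one with few hypothalamic neuron markers, and the other 7 control females lay between 418 and 488 CPM, so that only 2 of the obesogenic females (obesogenic female 4 and 6) entered their range. The log2 fold change in females was -0.07 ± 0.28 with all libraries, -0.25 ± 0.13 without control female 5 alone, and -0.25 ± 0.11 in the 26 libraries, where 6 of 6 obesogenic females lay below the control mean (edgeR adjusted p = 0.56). In males the value was -0.27 ± 0.27 with all libraries and -0.16 ± 0.11 in the 26, with 5 of 8 obesogenic males below the control mean. Averaged over the sexes, Agt was at -0.17 ± 0.20 with all libraries and -0.21 ± 0.08 in the 26 (edgeR adjusted p = 0.599), which does not pass.

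Htra1, the serine protease gene, had 107 CPM at the lowest, 117 at the median and 126 at the highest in obesogenic females, against 89.1, 134 and 167 CPM in control females. Obesogenic males had 76.0, 92.4 and 169 CPM, against 93.1, 119 and 287 CPM in control males. Obesogenic females formed the tightest group of the 4, inside the control range, and 4 of 8 obesogenic males lay below every control male. The log2 fold change was -0.13 ± 0.19 in females, where 7 of 7 obesogenic females lay below the control mean. In males it was -0.39 ± 0.19 (edgeR adjusted p = 0.94), and without control male 6, at 287 CPM, it was -0.17 ± 0.16. The values in the 26 libraries were -0.15 ± 0.17 in females and -0.19 ± 0.16 in males. Averaged over the sexes, Htra1 had the lowest adjusted p of the 10 genes, at -0.26 ± 0.13 (edgeR adjusted p = 0.501).

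**Figure D2:**
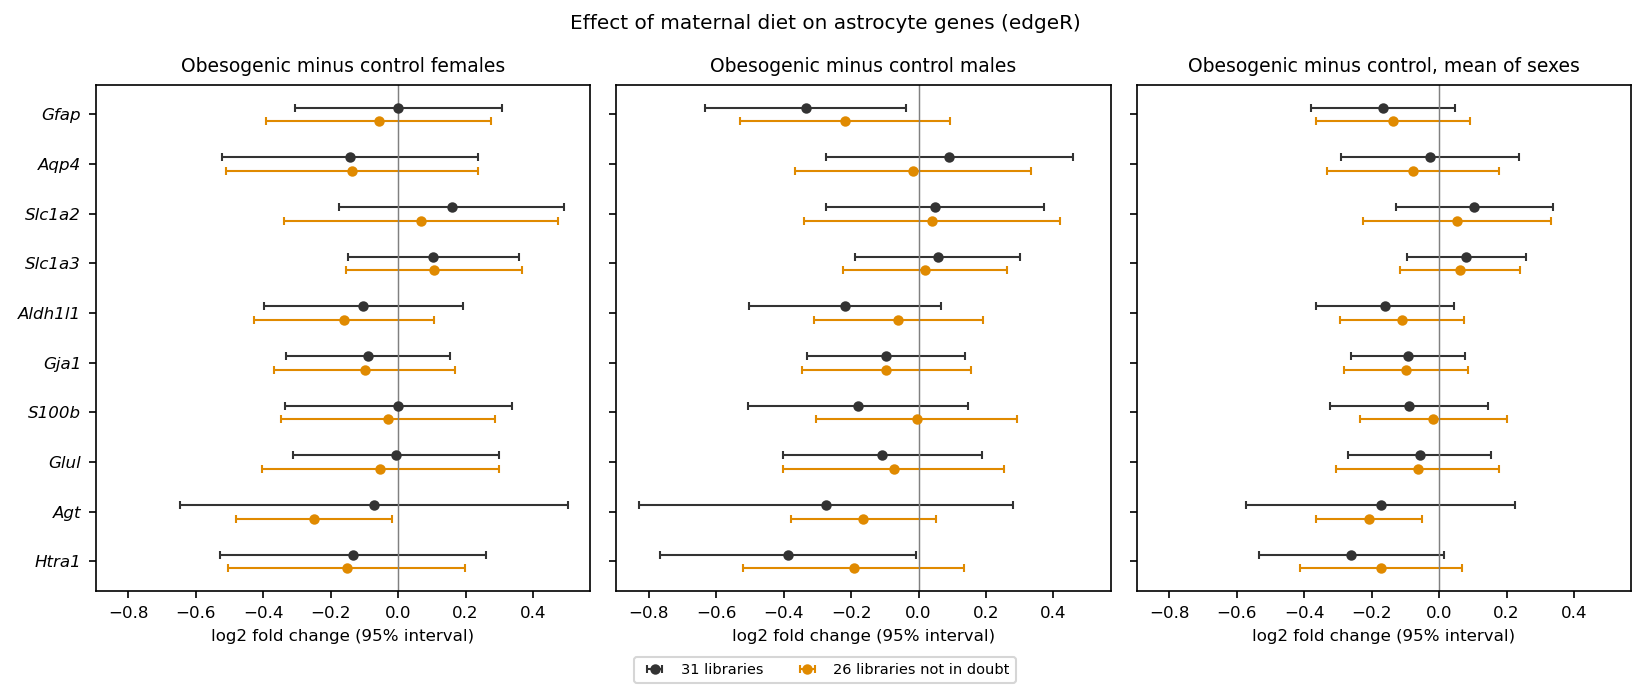
Log2 fold change of obesogenic over control for each astrocyte gene in females, in males and as the mean of the sexes, by edgeR. Dark points use 31 libraries and orange points the 26 not in doubt, with 95% intervals. With all libraries the interval misses 0 for Gfap and Htra1 in males, and in the 26 libraries for Agt in females and in the mean of the sexes.

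Across the list, 4 of 10 genes had positive and 6 negative fold changes in females, with a median of -0.04, beside 8900 positive and 9843 negative and a median of -0.01 over all genes tested. In males 3 were positive and 7 negative, with a median of -0.14, beside 9393 and 9350 and a median of 0.00 over all genes. In the 26 libraries 2 were positive and 8 negative in each sex, with medians of -0.08 in females and -0.07 in males. None of the 10 passed in the mean of the sexes (0% of all genes; 1918 at an unadjusted p under 0.05) or in the difference of the diet effect between the sexes (0%; 679). There DESeq2 called 5 and 6 genes and limma voom 0 and 0, with no astrocyte gene among them.

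Sex was compared within each diet. None of the 10 genes passed in females against males of obesogenic dams (0% of all genes by edgeR; 681 at an unadjusted p under 0.05, 12 called by DESeq2 and 3 by limma voom) or of control dams (0%; 823, 1 and 0). Gfap was the gene nearest to it: in offspring of obesogenic dams 7 of 7 females lay above the male mean, with a log2 fold change of 0.31 ± 0.15 (edgeR adjusted p = 1), and the value was 0.29 ± 0.15 in the 26 libraries. In offspring of control dams the same female over male value of Gfap was -0.03 ± 0.15. The 31 libraries include the 2 that went against their sex label. In the 26 libraries edgeR called 5 genes higher and 9 lower in females of obesogenic dams, and 4 higher and 7 lower in females of control dams. None of the 10 astrocyte genes was among them.

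The wider astrocyte programme was read from lists of related genes, none of which had a gene past the threshold in either diet contrast. Of 28 other astrocyte genes, 19 had positive and 9 negative diet values in females (median log2 fold change 0.04), and in males 6 were positive and 22 negative (median -0.11). In the 26 libraries the split was 10 to 18 in females (-0.04) and 8 to 20 in males (-0.04). The male values with the smallest p were those of Gjb6, the other main astrocyte connexin (-0.35 ± 0.18), and Slc7a10, a serine and glycine transporter (-0.30 ± 0.17). They were at -0.23 ± 0.16 and -0.14 ± 0.12 in the 26 libraries.

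Reactive astrocyte genes, 16 measured of 17, were 11 positive and 5 negative in females (median 0.18) and 4 positive and 12 negative in males (median -0.24). Over the 26 the split was 10 to 6 in females (median 0.16) and 7 to 9 in males (median -0.10). Stat3, a transcription factor of the reactive response, was at 0.22 ± 0.09 in females (edgeR adjusted p = 0.549), and at 0.25 ± 0.08 in the 26 libraries. Vim, which encodes the filament protein vimentin, was at -0.34 ± 0.12 in males (edgeR adjusted p = 0.94) and at -0.27 ± 0.10 in the 26 libraries. All 4 other intermediate filament genes listed, not all of them glial, had negative values in males (Vim, Des, Nes and Synm; median -0.23). In females 3 of 4 were positive (median 0.11). Over the 26 libraries 4 of 4 were again negative in males (median -0.18), and 1 of 4 was positive in females (median -0.01). Markers of other cells moved in the same contrasts. In males 8 of 9 ependymal markers were negative with all libraries (median -0.42) and with the 26 (-0.37), and meningeal fibroblast markers were negative in 10 of 10 (-0.44) and in 8 of 10 (-0.25). In females the meningeal fibroblast markers were negative in 10 of 10 in both sets (-0.54 and -0.30), while ependymal markers were positive in 6 of 9 (0.10) and in 2 of 9 (-0.10). Their part in the filament and reactive genes was not tested. Between females and males of obesogenic dams, 15 of the 16 reactive genes were higher in females, with a median of 0.29, and of 0.41 in the 26 libraries, beside -0.004 and -0.005 over all genes. None of them passed the threshold. In offspring of control dams 8 of the 16 were higher in females (median -0.01), and 12 of 16 in the 26 libraries (0.11). Meningeal fibroblast markers were higher in females too, 9 of 10 in offspring of obesogenic dams (median 0.30; 10 of 10 and 0.32 in the 26) and 10 of 10 in those of control dams (0.44, and 0.48 in the 26), and their part was not tested.

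In the glutamate and glutamine cycle, 5 of 14 genes were positive in females (median -0.05) and 8 of 14 in males (median 0.06). Slc17a7, a vesicular glutamate transporter of cortical neurons, was at -6.19 ± 1.52 in females with all libraries and at -0.92 ± 0.97 in the 26. In the endfoot and ion-handling list 6 of 12 were positive in females (median 0.01) and 5 of 12 in males (median -0.02), and Aqp1, a water channel, was at -5.02 ± 1.24 in females but at -0.59 ± 0.65 in the 26 libraries.

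Of 8 gap junction genes, 1 was positive in females (median -0.19) and 4 in males (median 0.01), and in the 26 libraries 2 and 6 were. Of 9 measured genes of the angiotensin system other than Agt, 5 were positive in females (median 0.01) and 6 in males (median 0.13). There Enpep, the aminopeptidase that trims angiotensin II, was at 0.57 ± 0.24 in males (edgeR adjusted p = 0.94) and at 0.39 ± 0.23 in the 26 libraries. Mas1, a receptor for an angiotensin fragment, was at 1.02 ± 0.71 in males and at 2.25 ± 0.72 in the 26 (edgeR adjusted p = 1). HtrA and S100 relatives had 0 of 8 positive values in females (median -0.20) and 2 of 8 in males (median -0.32), and the male median came to -0.06 in the 26 libraries.

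The levels of the 10 genes varied together from library to library within groups. The mean of its group was subtracted from each log2 CPM value. The 45 pairs were tested by permuting libraries within groups, with Benjamini-Hochberg adjustment over the 45. Covariation was part of the rule for this list, so the counts that pass describe the list and are no independent support for it. With all 31 libraries 28 pairs passed by Pearson's r, all of them positive, and 34 by Spearman's rho, and the median r was 0.53. In the 26 libraries 42 pairs passed, the median r was 0.66, and r ran from 0.33 to 0.90. Leaving out control male 6 alone gave 36 pairs, and leaving out control female 5 alone gave 33. The median r of each gene with all other genes was between -0.04 and 0.03, beside medians of 0.17 for Aqp4 to 0.66 for Gja1 with the other members. For 7 of the 10 genes the median r with the other 9 was reached by 1.13% to 5.02% of all genes, but for Aqp4, Agt and Slc1a3 it was reached by 38.6%, 22.8% and 18.97%. In the 26 libraries those shares were 3.87%, 4.03% and 0.512%.

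Aldh1l1 and S100b, both identity markers, were the closest pair over all libraries, with r = 0.92 and rho = 0.90 over 31 libraries (permutation p = 1e-05 for each, the smallest that 100000 permutations give; adjusted p = 5.6e-05 and 7.5e-05) and r = 0.86 without the 2 libraries farthest from the median. Slc1a2 and Gja1 had r = 0.82 and rho = 0.76, and Slc1a2 and Glul, uptake and conversion of glutamate, had r = 0.76 and rho = 0.72. Without control female 3 and control male 8, which held the extremes, those values of r were 0.76 and 0.71. Glul and Htra1 had r = 0.78 and rho = 0.79, and r = 0.70 without obesogenic male 4 and 5. Each r without 2 libraries kept the group means of all 31, so those left out still entered the means.

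Slc1a3 and S100b, the closest pair of the 26 libraries, differed between the library sets, with r = 0.34 and rho = 0.60 over 31 libraries and r = 0.90 and rho = 0.91 over 26. Aqp4 behaved likewise: with S100b its r was -0.07 over 31 libraries and 0.55 over 26. Without control male 6 and control female 8 it was 0.55, with the group means of all 31 libraries kept. Agt ranged from r = -0.15 with Aqp4 to 0.53 with Aldh1l1 over 31 libraries. In the 26, it ranged from 0.33 with Aqp4 to 0.67 with Aldh1l1.

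**Figure D3:**
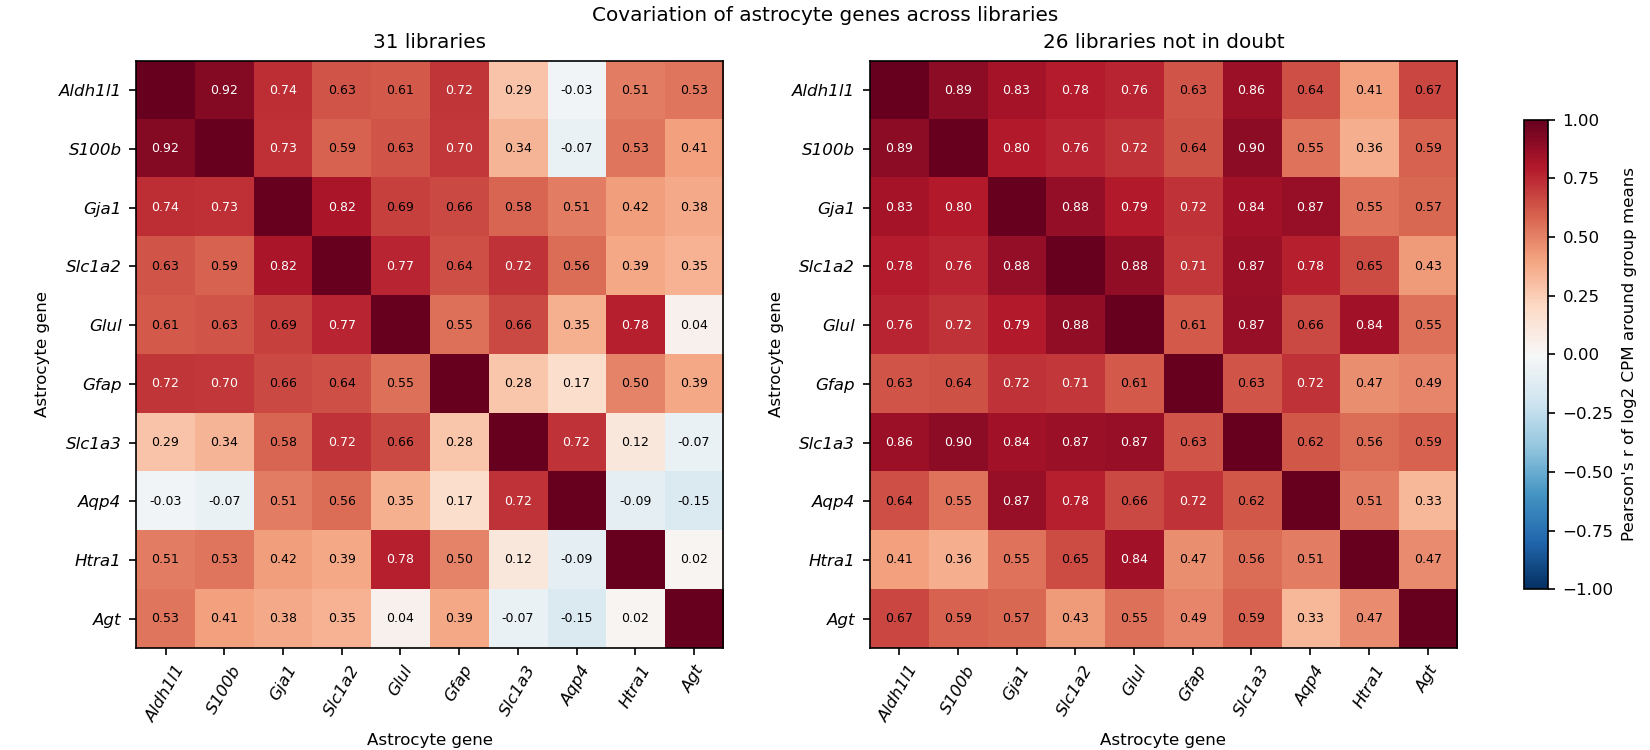
Pearson's r between the astrocyte genes, from log2 CPM values around their group means, over 31 libraries (left) and over the 26 not in doubt (right). The Aldh1l1 and S100b cell is the highest on the left, at 0.92, and most cells in the rows of Slc1a3, Aqp4 and Agt are darker on the right. In the row of Htra1 the cells with S100b, Aldh1l1 and Gfap are paler on the right and the others darker.

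Some libraries were high or low for nearly the whole list. All 10 genes were above their own median over 31 libraries in control female 3, control male 8, obesogenic male 4 and obesogenic male 5, and 0 of 10 were in obesogenic female 5 and 7 and obesogenic male 6, 7 and 8. Those at 10 of 10 came from both diets, and those at 0 of 10 were all offspring of obesogenic dams. Next to these, control female 7, obesogenic female 6 and obesogenic male 1 were at 1 of 10, and control male 4 was at 2 of 10. Whether low libraries go with diet was not tested. The summed level of the 10 genes was 5114 CPM at the lowest, 6608 at the median and 8087 at the highest in obesogenic females, against 5552, 5825 and 7958 CPM in control females. It was 4714, 5934 and 8359 CPM in obesogenic males, against 5083, 6330 and 9234 CPM in control males. Medians over the 26 libraries were 6059 CPM in obesogenic females and 6255 CPM in control females, so that the order of the female medians turned, and 5934 CPM in obesogenic males against 6108 CPM in control males. The groups overlapped over most of their range.

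Markers of other cells moved with these genes. The 28 other astrocyte genes, as a mean of log2 CPM, followed 8 of the 10 genes over 31 libraries and 10 of 10 over 26 (r of 0.56 with Htra1 to 0.94 with Slc1a3, around group means; 100 relations of 10 genes with 10 lists, adjusted together). In the 26 libraries microglia markers followed 7 of the 10 (r over all 10 genes of 0.18 to 0.77) and oligodendrocyte markers 5 of the 10 (over all 10, 0.06 to 0.64). Neuron markers ran the other way for 4 of the 10 (r over all 10 genes of -0.61 to 0.02), and hypothalamic neuron markers did so for 4 (over all 10, -0.63 to 0.09). Tanycyte markers followed none of the 10 in either set, with r of -0.17 to 0.19 in the 26 libraries. The share of cell types in a library was not measured, and its part in the covariation was not tested.

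Agt was set beside the hypothalamic neuron markers. Its r with them was 0.95 and rho 0.62 over 31 libraries (permutation p = 0.00493 and 0.0254; adjusted p = 0.0205 and 0.0776). Without the 2 farthest libraries r was 0.69, but the group means of all 31 were kept there. The 2 left out therefore still entered those means. Over the 26, with group means taken anew, r was 0.09. The part of each of the 5 libraries in doubt in this drop was not tested. Over 31 libraries Agt also followed ependymal markers (r = 0.93, rho = 0.66) and oligodendrocyte markers (0.72 and 0.54). It ran against olfactory bulb and telencephalon markers (-0.895 and -0.66). These relations passed by r and by rho (adjusted permutation p of 0.0215 or less). Over the 26 their r was 0.36, 0.32 and -0.44, and none passed by r. Control female 5 had the lowest Agt, at 31.9 CPM, and the lowest marker sum, and control male 6 had the highest of both, at 775 CPM and 4043 CPM. Ependymal markers summed to 91.7 CPM in control female 5, against 249.4 to 464.2 CPM elsewhere. Of the 10 genes in control female 5, Slc1a2 was also the lowest of 31, at 1107 CPM, and Aldh1l1 was at 74.3 CPM, while Htra1 was at 167 CPM and Aqp4 at 239 CPM. The 28 other astrocyte genes summed to 12410 CPM there, against 14830 to 25240 CPM in the other 30 libraries. The part of tissue composition in these values was not tested.

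**Figure D4:**
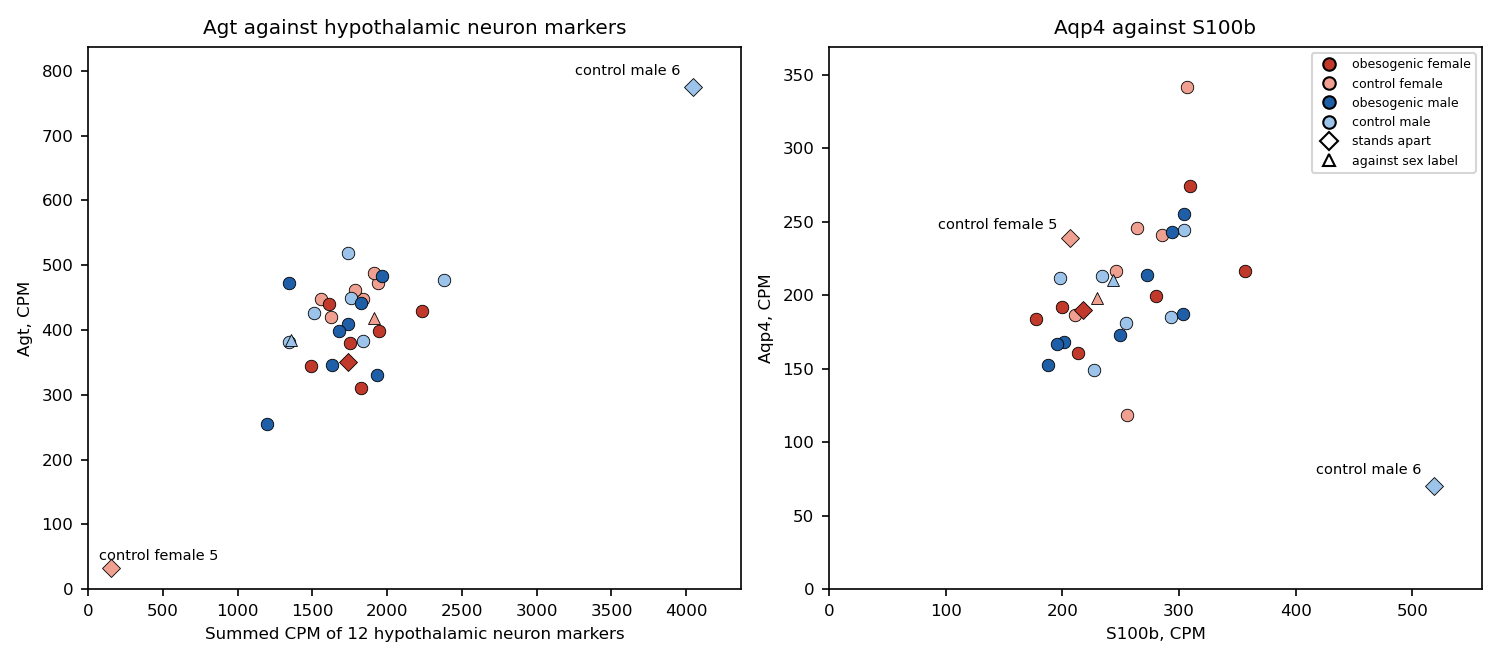
Left, Agt in CPM against the summed CPM of 12 hypothalamic neuron markers. Right, Aqp4 in CPM against S100b in CPM. Each point is 1 of 31 libraries, coloured by group, with diamonds for libraries that stand apart and triangles for those against their sex label. Control female 5 (Agt 31.9 CPM) and control male 6 (Agt 775 CPM, Aqp4 69.9 CPM, S100b 518 CPM) lie far from the others.

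The genes most like each member, by r of group-centred log2 CPM over 31 libraries, include other genes known from astrocytes. Slc1a2 was followed most closely by Myo6 (r = 0.93) and Kcnj10 (0.93), the potassium channel Kir4.1, and Slc1a3 by Slc4a4 (0.93), a bicarbonate transporter. Gja1 was also closest to Kcnj10 (0.91). Aldh1l1 was closest to Cpe (0.94), and S100b (0.92) was also among its first 5, while S100b was closest to Slc25a18 (0.93), a mitochondrial glutamate carrier, and then Aldh1l1. Glul led with Rab31 (0.90), Aqp4 with Gpam (0.91), Gfap with Prdx6 (0.76) and Htra1 with Smox (0.79).

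Agt was closest to Itih3 (0.98) and to Pmch (0.97), the melanin-concentrating hormone of hypothalamic neurons. Over the 26 libraries Itih3 was still the closest to Agt (0.87), Pmch was no longer among the first 5, and Htra1 was closest to Gjb6 (0.90). These values are descriptions over libraries that share depth and tissue composition, and they carry no test.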

How the data were processed

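RNA-seq read pairs were counted per gene by the authors, and the deposited values are raw counts, not normalized. Per the file headers, featureCounts 1.6.2 counted read pairs on the reverse strand against the Ensembl GRCm38 release 94 annotation, with a mapping quality of at least 10. TopHat2 2.0.13 and the mm10 build are named in the submitters' processing notes. Gene symbols came from the reference tables (54409 of 54532 IDs matched), and exonic lengths from the deposited Length column (other).

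Depth per library was 23118626 to 38547288 pairs, which limits counting error to a small part of the spread between libraries. Groups were taken from the labels, and no libraries were repeats (lowest chi-square per degree of freedom of a pair 7.98). Tests were edgeR 4.0.16 quasi-likelihood fits in R 4.3.3 with TMM scaling, over all 4 groups and 18743 genes left by edgeR's filter on low counts, and a threshold of 0.05 on the Benjamini-Hochberg adjusted p. Levels are CPM, and log2 CPM has a prior count of 2. Covariation was tested with 100000 permutations (Python 3.11.15, NumPy 2.4.6). Alternatives were DESeq2 1.42.0, limma 3.58.1 voom, other scalings and filters, and sets of libraries left out. The edgeR and covariation steps were tested on simulated data.

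A library stood apart when its median correlation was over 3 median absolute deviations below the median. The 10 genes and all lists were chosen with earlier results of these data known. Named genes were the 10, up to 4 genes of smallest p per list and contrast, and the 5 genes of highest r with each member, of which the report gives some and 1 is not reported here. Aldh1l1 shares 2.33% of its exonic bases with another gene on its strand, and Glul 2.8%.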

Additional observations from a re-analysis of the deposited data

Results flagged for a closer look

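In 9 of 40 groups of values (10 genes in 4 groups), the highest or lowest library lay far from the others by Dixon's criterion. Chance meets it in about 1 in 20 groups of normally distributed values that are independent. The 10 genes share libraries and vary together, so that rate cannot be set against the 9 of 40. Control male 6 accounted for 5 of the 9. It had 647.3 CPM of Gfap (the other control males 353.7 to 491.8 CPM), 188 CPM of Aldh1l1 (84.2 to 126.6), 518.3 CPM of S100b (197.8 to 304.7), 775 CPM of Agt (380.7 to 519.5) and 286.8 CPM of Htra1 (93.1 to 164.8). Control female 5 had 31.93 CPM of Agt, against 418.2 to 487.8 CPM in the other control females. These libraries also stood apart across all genes.

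The other 3 were in libraries that did not stand apart. Obesogenic female 1 had 628.9 CPM of Gfap, against 346.5 to 456.4 CPM in the other obesogenic females. Control female 3 had 626.2 CPM of Gfap, against 338.6 to 436.5 CPM in the other control females. Control male 8 had 2697 CPM of Slc1a2, against 1204 to 1745 CPM in the other control males.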

How the results depend on the processing

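Of 331 values of the astrocyte genes under alternative settings, 307 kept the direction and the side of the threshold of the reported value, and none of them passed the threshold (lowest adjusted p 0.392). The other 24 turned sign, in 6 of 31 results, all with reported values under 0.1 in size; the cause was not tested. In females Gfap turned to -0.000417 with limma voom, -0.0484 without the libraries that stand apart, -0.0576 without all 5 in doubt, -0.122 without the libraries with 2 numbers in their title and -0.00133 with only the 2 groups compared. S100b turned to -0.0169 without the libraries against their sex label, and to -0.0300, -0.0573 and -0.00138 under the last 3 of those settings. Glul turned to 0.0670 with voom and 0.0136 without the libraries that stand apart. In males Aqp4 turned to -0.0513 with voom, -0.0376 without those that stand apart and -0.0176 without all 5, and Slc1a3 to -0.0131 and -0.0171 under the first and second of these. In the mean of the sexes S100b turned to 0.00498 with voom and 0.000383 without those that stand apart. Leaving out control female 5 or control male 6 alone gave -0.0354 to 0.00412 for Gfap, -0.0313 to 0.00425 for S100b and -0.00515 to 0.0271 for Glul in females, -0.0345 to 0.0870 for Aqp4 and -0.0135 to 0.0529 for Slc1a3 in males, and -0.107 to 0.0011 for S100b in the mean of the sexes.

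No gene of the whole table passed in any comparison with edgeR. DESeq2 called 6 (diet in females), 1 (males), 5 (mean of the sexes), 6 (difference of the sexes), 12 (sex, obesogenic dams) and 1 (sex, control dams). For sex in offspring of obesogenic dams, voom called 3, the 2 groups alone 12, and edgeR 9 without the libraries against their sex label, 1 without those that stand apart, 14 without all 5 and 0 to 2 without 1 library. For control dams edgeR called 10 and 11 without the first and all 5. Pairs of covarying genes were 28, and 44 without those that stand apart (33 to 36 without 1 library; 27 or 28 under other scalings). The 2 settings that leave out 1 library each were chosen after seeing the data. No paired analysis was possible because replicate numbers were given in accession order and pair no samples. With 7 or 8 libraries a group, the 95% interval of a diet effect reached -0.83 on the log2 scale for Agt in males, so a difference of that size in Agt lies within the error.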
